A study of Mus musculus with 15 samples.

Results

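The Hippo pathway genes described here were 9 rows of a table of 55335 gene IDs from mouse tibial subchondral bone, the bone plate under the joint cartilage of the shin bone. They were chosen by symbol and cover the co-activators YAP (Yap1) and TAZ (Wwtr1), the DNA-binding partners Tead1 and Tead3, and the target genes Ccn1, Ccn2, Ankrd1, Amotl2 and Ajuba. All 9 symbols matched 1 row each. In all, 3 groups of 5 male mice were compared, 1 RNA-seq library per mouse. The first was DMM-operated Pvalb conditional knockout mice (DMM Pvalb cKO, Dmp1-Cre;Pvalb fl/fl), the second DMM-operated wild-type mice and the third sham-operated wild-type mice, with C57BL/6J as the wild-type strain. In destabilization of the medial meniscus (DMM) a ligament that anchors the meniscus is cut, which overloads the joint, while sham surgery opened the capsule only. The labels give the mice as 8 weeks old, and the bone was collected 8 weeks after surgery. Dmp1-Cre acts in osteocytes and, less strictly, in mature osteoblasts, and its activity is known to extend to some muscle cells. Knockout mice without DMM were not analysed here, so the deletion could be described under DMM only.

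YAP and TAZ carry mechanical and cell-contact signals to the nucleus. When the Hippo kinases (MST and LATS) are active, they phosphorylate YAP and TAZ and hold them in the cytoplasm, and when tension on the cytoskeleton is high, YAP and TAZ enter the nucleus, bind TEAD factors and raise transcription of genes such as Ccn1 and Ccn2. In bone, YAP and TAZ are known from osteoblast-lineage and osteocyte studies as regulators of bone formation and of the response to load. Their activity depends on where the protein is in the cell, which RNA levels do not measure.

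The promoters of the target genes are shown because the TEAD recognition motif links the targets to YAP and TAZ. RefSeq windows on GRCm38.p6, covering 250 bases before to 50 bases after the annotated start, were found for 7 of the 9 genes, and there was no entry for Tead1 or Ccn2. Capitals mark the TEAD motif GGAATG or its reverse complement CATTCC, and all sequences run 5′ to 3′ on the gene's own strand, which is minus for Ccn1, Ankrd1 and Ajuba and plus for Amotl2. The windows were chr3:145649936-145650235 for Ccn1, chr14:54577612-54577911 for Ajuba, chr9:102717554-102717853 for Amotl2 and chr19:36119795-36120094 for Ankrd1.
Ccn1: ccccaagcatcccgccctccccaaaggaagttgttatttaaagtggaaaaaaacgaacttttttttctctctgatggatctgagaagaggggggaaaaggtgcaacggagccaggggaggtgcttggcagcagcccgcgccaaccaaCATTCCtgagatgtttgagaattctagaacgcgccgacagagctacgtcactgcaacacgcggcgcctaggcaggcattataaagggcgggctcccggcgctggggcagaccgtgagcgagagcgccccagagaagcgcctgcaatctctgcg
Ajuba: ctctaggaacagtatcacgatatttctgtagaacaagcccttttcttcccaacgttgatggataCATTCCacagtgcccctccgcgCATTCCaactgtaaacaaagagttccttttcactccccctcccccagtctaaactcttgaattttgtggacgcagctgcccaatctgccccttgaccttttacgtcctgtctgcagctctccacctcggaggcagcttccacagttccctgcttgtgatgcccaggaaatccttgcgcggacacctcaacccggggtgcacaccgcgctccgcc
Amotl2: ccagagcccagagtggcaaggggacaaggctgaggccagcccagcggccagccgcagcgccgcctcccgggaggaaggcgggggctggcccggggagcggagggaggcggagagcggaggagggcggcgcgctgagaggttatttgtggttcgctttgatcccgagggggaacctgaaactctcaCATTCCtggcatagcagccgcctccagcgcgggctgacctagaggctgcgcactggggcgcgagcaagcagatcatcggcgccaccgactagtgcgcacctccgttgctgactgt
Ankrd1: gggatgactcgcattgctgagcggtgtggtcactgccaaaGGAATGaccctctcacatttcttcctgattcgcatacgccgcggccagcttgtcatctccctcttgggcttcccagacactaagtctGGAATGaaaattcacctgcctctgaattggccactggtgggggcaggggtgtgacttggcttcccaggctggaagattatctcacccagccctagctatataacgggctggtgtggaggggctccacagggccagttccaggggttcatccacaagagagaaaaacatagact
Relative to the start, the motif began at -103 in Ccn1 and at -65 in Amotl2. Ajuba held 2 motifs, at -186 and -164, and Ankrd1 held 2, at -210 and -123. Yap1 and Wwtr1 each carried 1 motif in their own window, and Tead3 carried up to 3 in a window. At least 1 motif was thus present in 7 of 7 genes with a window. In the background, from which 1 chromosome was left out, 16.6% of 27025 genes and 14.7% of 32851 windows held one. YAP and TAZ targets have in part been recognised by such sites, so the share is a description. A serum response factor box (the CArG box, searched on both strands) was in none of the 7, and in 1.81% of the background genes.

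The values were FPKM (fragments scaled to transcript length and to the mapped library) as deposited, with totals of 375453 to 468423 per library. The step between low values put the depth at about 19400000 to 32200000 fragments per library. Osteocyte markers (Dmp1, Sost, Mepe, Phex and 6 others) were all detected, with sums of 97.2 to 150 FPKM in DMM Pvalb cKO, 133 to 170 in DMM wild-type and 76.2 to 194 in sham wild-type libraries. Muscle RNA was also present, since the sum of 20 fast muscle markers was 547 to 3283 FPKM in DMM Pvalb cKO, 294 to 2755 in DMM wild-type and 131 to 5041 in sham wild-type libraries. Pvalb itself, which is abundant in fast muscle, was at 23.7 to 166 FPKM in DMM Pvalb cKO, 33.0 to 375 in DMM wild-type and 15.8 to 490 in sham wild-type libraries (ENSMUSG00000005716). Those ranges overlap. Divided by the fast muscle marker sum of the same library, a measure chosen after the values were seen, Pvalb was at 0.0311 to 0.0765 in DMM Pvalb cKO, 0.0924 to 0.136 in DMM wild-type and 0.0950 to 0.121 in sham wild-type libraries. Every knockout library was below every wild-type library (log2 difference -1.13 from DMM wild-type, exact permutation p = 0.00794, the smallest that 5 against 5 can give), and the cells in which Pvalb differed were not tested. DMM wild-type replicate 3 and DMM Pvalb cKO replicates 1 and 4 lay farthest from the others on the first principal component, and results that turn without them are given as such.

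On this per-length scale Ccn2 was the most abundant of the 9 transcripts, at 40.3 to 177 FPKM over the 15 libraries, followed by Ccn1 at 13.2 to 49.1 FPKM. Ccn2 was above Ccn1 in every library. Wwtr1 at 2.51 to 8.21 FPKM and Amotl2 at 2.57 to 5.55 FPKM came next and overlapped each other. Yap1 was at 1.07 to 3.01 FPKM, below Wwtr1 in every library. Ajuba was at 0.768 to 1.39 FPKM. The lowest were Tead1 at 0.0590 to 1.44 FPKM, Tead3 at 0.382 to 0.921 FPKM and Ankrd1 at 0 to 1.28 FPKM, with overlapping ranges. Yap1, Wwtr1, Ccn1, Ccn2, Amotl2 and Ajuba passed the filter for testing (1 FPKM or more in 5 or more of the 15 libraries), and Tead1, Tead3 and Ankrd1 did not. The plot of FPKM by library shows all 9.

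**Figure D1:**
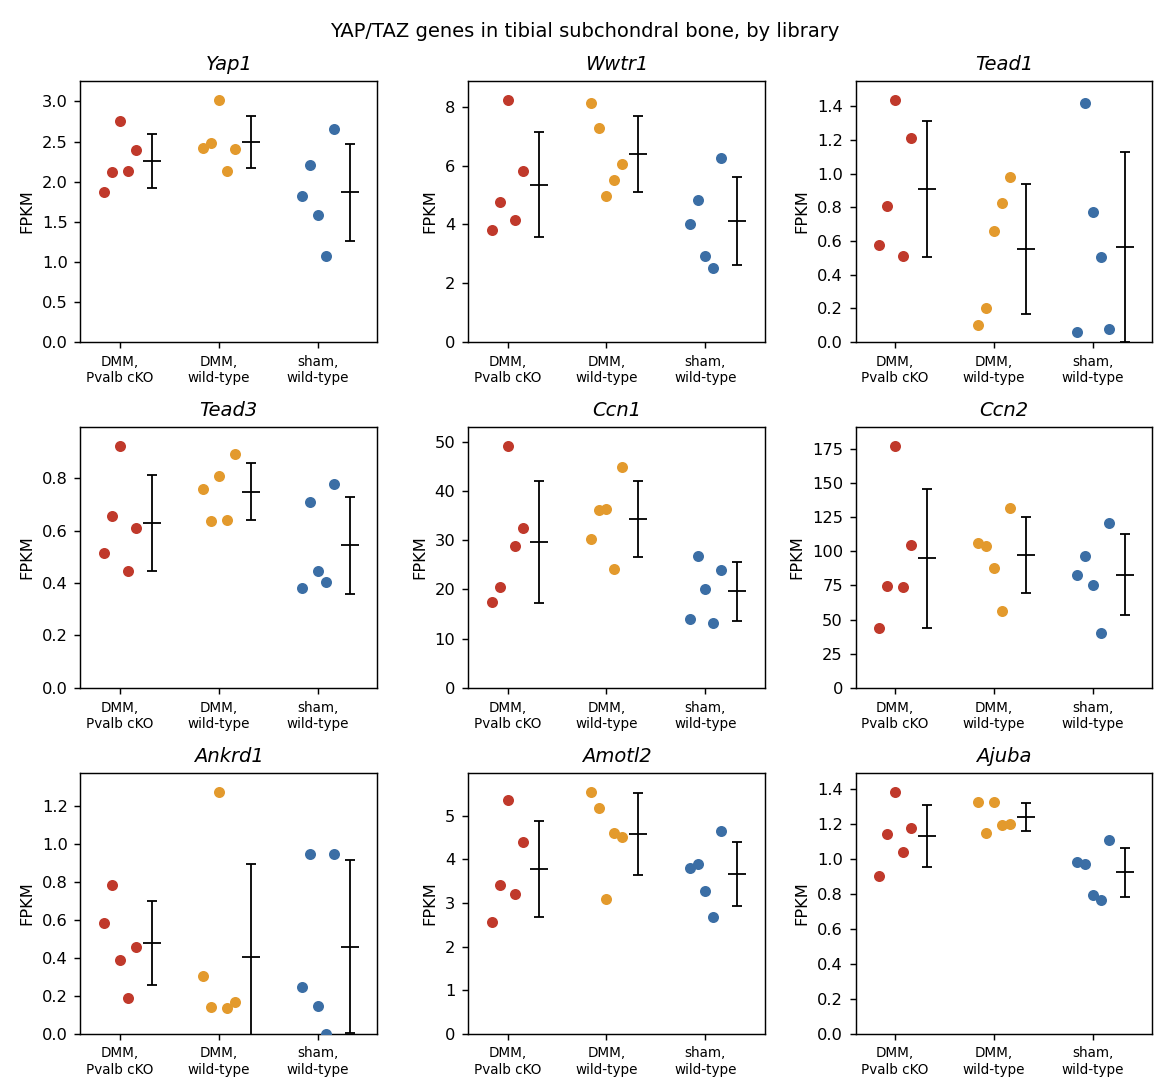
FPKM of the 9 genes (vertical axes, each from 0) in each of the 5 libraries of DMM Pvalb cKO (red), DMM wild-type (orange) and sham wild-type (blue) mice; the black bar and whiskers give the mean and SD. Ajuba is the gene whose DMM wild-type points (1.15 to 1.33 FPKM) all lie above the sham points (0.768 to 1.11 FPKM), and Ccn2 has the widest spread within DMM Pvalb cKO (43.9 to 177 FPKM).

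The first comparison asked how joint destabilization changed these genes in wild-type bone. After DMM the 6 tested genes all had higher mean levels than after sham surgery. Ccn1 differed most, with a mean 1.75 times the sham mean, and Ajuba separated the groups without overlap. With limma and Benjamini-Hochberg adjustment over the 13653 genes tested, 0 of the 6 passed an adjusted p of 0.05, as did 0 of all genes (0.0%), and the smallest adjusted p of any gene was 0.142. At an unadjusted limma p under 0.05, 4 of the 6 were higher (Yap1, Wwtr1, Ccn1, Ajuba) beside 5.5% of all genes tested. Their median log2 difference was 0.28, beside 0.0019 over all genes tested, and 50.4% of those genes were above 0. Single values were compared by an exact two-sided permutation test of the library labels, 5 against 5, and these 27 p-values over the 3 comparisons are unadjusted. In bulk bone a change in the number of cells of a type and a change in RNA per cell cannot be told apart.

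Among the co-activators, Yap1 (ENSMUSG00000053110) was at 2.43, 2.48, 3.01, 2.13 and 2.41 FPKM in DMM wild-type libraries, against 1.82, 2.21, 1.58, 1.07 and 2.65 FPKM in sham wild-type libraries. Sham replicate 4 was the lowest of the 15 libraries, and sham replicates 2 and 5 lay inside the DMM range. The means were 2.49 ± 0.322 in DMM wild-type and 1.87 ± 0.603 in sham wild-type libraries (SD, n = 5 each). The log2 difference was 0.31 (SE 0.13), with a limma adjusted p of 0.631 and an exact permutation p of 0.0794. Wwtr1 (ENSMUSG00000027803), which encodes TAZ, was at 8.11, 7.29, 4.96, 5.51 and 6.06 FPKM in DMM wild-type libraries, against 4.02, 4.85, 2.94, 2.51 and 6.26 FPKM in sham wild-type libraries. Sham replicate 5 again lay inside the DMM range, and the other 4 sham libraries lay below every DMM library. The log2 difference of Wwtr1 was 0.56 (SE 0.21), with a limma adjusted p of 0.492 and an exact permutation p of 0.0476.

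Ccn1 (ENSMUSG00000028195), also called Cyr61, encodes a secreted matricellular protein and is a textbook YAP target. It was at 30.3, 36.2, 36.3, 24.1 and 44.7 FPKM in DMM wild-type libraries, against 14.0, 26.8, 20.1, 13.2 and 24.0 FPKM in sham wild-type libraries. DMM replicate 4 lay below sham replicate 2, and otherwise the groups were apart. The means were 34.3 ± 7.68 in DMM wild-type and 19.6 ± 6.01 in sham wild-type libraries (SD, n = 5 each), a log2 difference of 0.80 (SE 0.26), with a limma adjusted p of 0.397 and an exact permutation p of 0.0159. Its relative Ccn2 (ENSMUSG00000019997), or CTGF, a matricellular protein that promotes matrix production, was at 106, 104, 87.9, 56.6 and 132 FPKM in DMM wild-type libraries, against 82.3, 96.3, 75.5, 40.3 and 121 FPKM in sham wild-type libraries. These ranges overlapped over most of their length, with replicate 4 lowest and replicate 5 highest in both groups. The log2 difference of Ccn2 was 0.26 (SE 0.35), with a limma adjusted p of 0.920 and an exact permutation p of 0.460.

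Ajuba (ENSMUSG00000022178) encodes a LIM-domain adaptor that binds LATS kinases. It was at 1.33, 1.15, 1.33, 1.19 and 1.20 FPKM in DMM wild-type libraries, against 0.981, 0.971, 0.797, 0.768 and 1.11 FPKM in sham wild-type libraries. All 5 DMM libraries were above all 5 sham libraries, as in 202 of 13653 genes tested (1.48%). The gap was narrow, between 1.15 FPKM in DMM replicate 2 and 1.11 FPKM in sham replicate 5, and the log2 difference was 0.22 (SE 0.07, limma adjusted p = 0.401). The exact permutation p was 0.00794, the smallest that 5 against 5 libraries can give. Amotl2 (ENSMUSG00000032531), a target that in turn binds and restrains YAP, was at 5.55, 5.18, 3.09, 4.60 and 4.52 FPKM in DMM wild-type libraries, against 3.80, 3.90, 3.27, 2.68 and 4.66 FPKM in sham wild-type libraries. Its groups overlapped, since DMM replicate 3 was second lowest of these 10 libraries. The log2 difference of Amotl2 was 0.26 (SE 0.16), with a limma adjusted p of 0.917 and an exact permutation p of 0.159.

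The 3 genes under the filter are given by level. Tead3 (ENSMUSG00000002249) averaged 0.747 ± 0.109 FPKM in DMM wild-type and 0.543 ± 0.185 FPKM in sham wild-type libraries (SD, n = 5 each, exact permutation p = 0.0873). Tead1 (ENSMUSG00000055320) was at 0.101, 0.205, 0.658, 0.824 and 0.980 FPKM in DMM wild-type libraries, against 0.0590, 1.419, 0.774, 0.509 and 0.0755 FPKM in sham wild-type libraries. It was thus split within both groups, and the exact permutation p was 0.944. Ankrd1 (ENSMUSG00000024803), a YAP target that is also a stretch-responsive gene of striated muscle, was at 0.306, 0.144, 1.28, 0.135 and 0.168 FPKM in DMM wild-type libraries, against 0.247, 0.948, 0.145, 0 and 0.951 FPKM in sham wild-type libraries. It was highest in DMM replicate 3 and in sham replicates 2 and 5, and the exact permutation p was 0.937. From the estimated depth and an exon length of 2886 bases, the median library held about 22.9 Ankrd1 fragments, so moderate differences were not detectable for it.

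**Figure D2:**
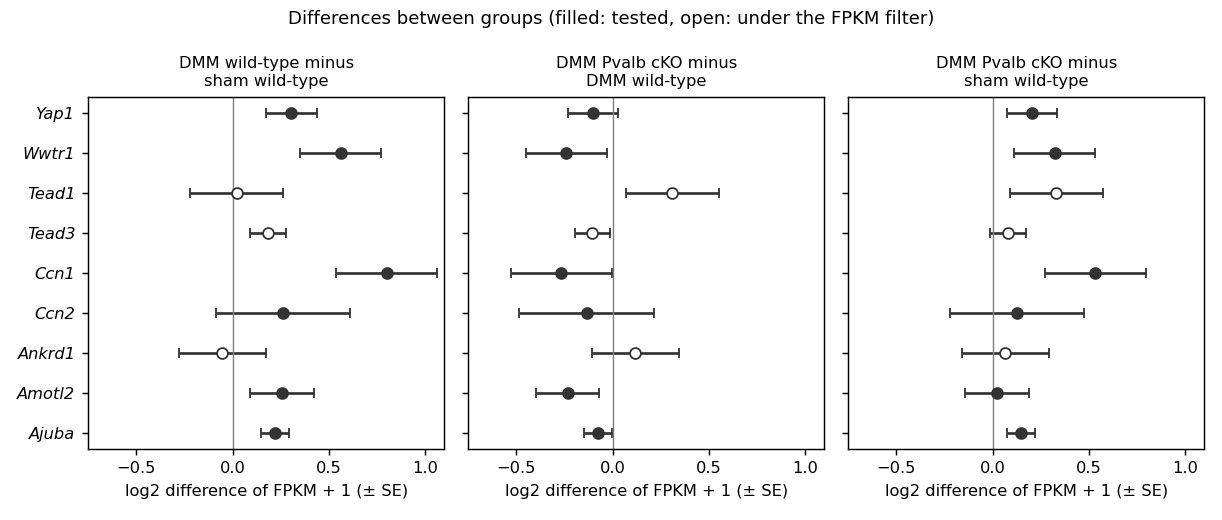
Log2 difference of FPKM + 1 (horizontal axis, point with SE) for each gene in the 3 comparisons; filled points are the 6 genes tested in the limma fit and open points are genes under the FPKM filter. The 6 filled points lie at 0.22 to 0.80 for DMM wild-type minus sham wild-type and at -0.27 to -0.08 for DMM Pvalb cKO minus DMM wild-type.

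Markers of connective tissue moved with these differences. The sum of 13 fibroblast and synovium markers (Col1a1, which osteoblasts also make, Col3a1, Lum, Dcn, Prg4 and others, none at 0) was 1490 to 2253 FPKM in DMM wild-type libraries and 785 to 1557 FPKM in sham wild-type libraries. The sum of 10 osteoblast markers was 2313 to 4895 FPKM in DMM wild-type and 1520 to 2745 FPKM in sham wild-type libraries. With the fibroblast list's mean log2 level as covariate, DMM minus sham was -0.10 for Yap1, -0.10 for Wwtr1 and -0.05 for Ccn1. It was -0.93 for Ccn2, -0.16 for Amotl2 and 0.06 for Ajuba (SE 0.09 to 0.28 over the 6), and 0 of the 6 passed. That level was 4.98 to 5.92 in DMM wild-type and 3.84 to 5.05 in sham wild-type libraries. Because it went largely with the groups, this fit could not separate the marker level from DMM. With the fast muscle list as covariate the differences were larger, and Yap1 (0.40, SE 0.08, limma adjusted p = 0.0281) and Ccn1 (0.96, SE 0.21, limma adjusted p = 0.0321) passed among 271 genes. That call changed with the libraries in the fit. Of the 6 genes 0 passed when DMM wild-type replicate 1 or sham replicate 2, 3 or 4 was left out of this covariate fit. When DMM wild-type replicate 2 or 5 or sham replicate 1 was left out, 1 passed. Without DMM wild-type replicate 3, Wwtr1 (limma adjusted p = 0.0303) and Ccn1 (0.0471) passed, and Yap1 did not (0.0594). With 1 library left out the differences were 0.35 to 0.44 for Yap1 and 0.82 to 1.06 for Ccn1.

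The second comparison asked what the Dmp1-Cre deletion of Pvalb did under DMM. In DMM Pvalb cKO libraries all 6 tested genes had lower means on the log2 scale than in DMM wild-type libraries, by 0.08 to 0.27, and none passed. Of all genes tested 1 passed (0.00732%), and 54.9% were below 0, so a lower sign was common. No tested YAP or TAZ gene had an unadjusted limma p under 0.05, beside 2.15% of all genes lower and 1.11% higher, and limma adjusted p-values were 0.935 to 0.951. Their median log2 difference was -0.18, beside -0.017 over all genes. With median-of-ratios scaling 8031 of 13653 genes were above 0, and the 6 genes remained lower, by 0.04 to 0.21.

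Yap1 was at 1.88, 2.12, 2.76, 2.13 and 2.40 FPKM in DMM Pvalb cKO libraries, inside or just below the DMM wild-type range of 2.13 to 3.01 FPKM. Wwtr1 was at 3.82, 4.76, 8.21, 4.15 and 5.82 FPKM in DMM Pvalb cKO libraries, against 4.96 to 8.11 FPKM in DMM wild-type libraries. Of the knockout libraries 3 lay below every DMM wild-type library, and replicate 3 lay above them all. The log2 differences were -0.10 for Yap1 (SE 0.13, exact permutation p = 0.254) and -0.24 for Wwtr1 (SE 0.21, exact permutation p = 0.262).

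Ccn1 was at 17.5, 20.4, 49.1, 28.8 and 32.4 FPKM in DMM Pvalb cKO libraries, against 24.1 to 44.7 FPKM in DMM wild-type libraries. Replicates 1 and 2 lay below the wild-type range and replicate 3 above it, so that the mean of 29.6 ± 12.4 in the knockout and 34.3 ± 7.68 in wild-type libraries (SD, n = 5 each) differed by less than the spread (log2 difference -0.27, SE 0.27, exact permutation p = 0.365). Ccn2 was at 43.9, 74.6, 177, 74.0 and 104.9 FPKM in DMM Pvalb cKO libraries, against 56.6 to 132 FPKM in DMM wild-type libraries. The knockout group held both the highest and, with sham replicate 4, one of the lowest Ccn2 levels of the series, and the log2 difference was -0.14 (SE 0.35, exact permutation p = 0.738). Ccn2 was 0.10 higher when DMM Pvalb cKO replicate 1 was left out.

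Amotl2 was at 2.57, 3.42, 5.37, 3.20 and 4.39 FPKM in DMM Pvalb cKO libraries (log2 difference -0.23, exact permutation p = 0.262). Ajuba was at 0.906, 1.15, 1.39, 1.04 and 1.18 FPKM in DMM Pvalb cKO libraries (log2 difference -0.08, exact permutation p = 0.262). Both overlapped the DMM wild-type libraries, and knockout replicate 3 was the highest of its group for each. Tead1 was at 0.576, 0.806, 1.44, 0.511 and 1.21 FPKM in DMM Pvalb cKO libraries, with none in the range of 0.0590 to 0.205 FPKM that 2 DMM wild-type and 2 sham wild-type libraries occupied (exact permutation p = 0.198 against DMM wild-type). Tead3 was at 0.446 to 0.921 FPKM and Ankrd1 at 0.186 to 0.784 FPKM in DMM Pvalb cKO libraries, and both overlapped the other groups.

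Single libraries carried much of the spread in the knockout group. Replicate 3 was the highest of its group for 8 of the 9 genes and for 6 of the 6 tested genes, and replicate 1 was the lowest for all 6 tested genes. Replicate 3 also had the highest fibroblast marker sum of the series at 2430 FPKM, and replicate 1 had the lowest sum of its group at 1059 FPKM, although by the mean log2 level of these markers replicate 2 was lowest (4.82) and replicate 1 was at 5.16. In sham wild-type mice replicate 4 was lowest for all 6 tested genes, with the lowest fibroblast marker sum of the series at 785 FPKM. Without DMM wild-type replicate 3 and DMM Pvalb cKO replicates 1 and 4, which stood apart on the first principal component, the knockout minus wild-type differences turned to 0.02 for Yap1, 0.22 for Ccn2 and 0.01 for Ajuba. Several marker lists were lower in most knockout libraries. The chondrocyte marker sum was 549 to 1207 FPKM in DMM Pvalb cKO and 1026 to 1173 FPKM in DMM wild-type libraries, and the osteocyte marker sum given above was 97.2 to 150 and 133 to 170 FPKM in these groups. In each of these lists 4 of the 5 knockout libraries lay below every DMM wild-type library, as did 3 of 5 for the fibroblast markers (1059 to 2430 FPKM in DMM Pvalb cKO and 1490 to 2253 FPKM in DMM wild-type libraries). The fast muscle markers overlapped. The part of these cell types in the lower means of the 6 genes was not tested, beyond the fibroblast and muscle covariates.

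Set against sham wild-type, DMM Pvalb cKO libraries had higher means for the same 6 genes, with 0 of 6 passing beside 4 of all genes (0.0293%). At an unadjusted limma p under 0.05 there were 0 of 6, beside 5.84% of all genes higher, and 47.9% of all genes were above 0. The log2 differences were 0.20 for Yap1, 0.32 for Wwtr1, 0.53 for Ccn1, 0.12 for Ccn2, 0.02 for Amotl2 and 0.15 for Ajuba, with a median of 0.17 beside -0.0104 over all genes. For Ccn1 the exact permutation p was 0.127. DMM Pvalb cKO thus lay between the other groups in mean log2 level for these genes, and none of these differences was significant. Leaving out 1 library turned the sign of Ccn2 (-0.14 without DMM Pvalb cKO replicate 3, -0.11 without sham replicate 4) and of Amotl2 (-0.09 and -0.03 without DMM Pvalb cKO replicates 3 and 5, -0.0048 and -0.06 without sham replicates 3 and 4).

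Ratios of FPKM within a library do not depend on its total. The ratios printed here are of FPKM, but the log2 differences and p-values are for ratios of FPKM + 1. Those shrink for low genes and can depend on the total. Ccn2 over Ccn1 was 3.11 ± 0.551 in DMM Pvalb cKO, 2.82 ± 0.467 in DMM wild-type and 4.26 ± 1.16 in sham wild-type libraries (SD, n = 5 each). For DMM wild-type against sham wild-type the log2 ratio differed by -0.54 (exact permutation p = 0.0159, unadjusted over 9 ratio tests). The DMM wild-type ratios were 3.50, 2.88, 2.42, 2.34 and 2.95, against 5.89, 3.59, 3.76, 3.05 and 5.02 in sham wild-type libraries, so that DMM replicate 1 overlapped sham replicate 4. The difference was 0.13 between DMM Pvalb cKO and DMM wild-type (exact permutation p = 0.413) and -0.41 between DMM Pvalb cKO and sham wild-type (exact permutation p = 0.103). Wwtr1 over Yap1 was 2.33 ± 0.407 in DMM Pvalb cKO, 2.61 ± 0.630 in DMM wild-type and 2.19 ± 0.203 in sham wild-type libraries (SD, n = 5 each). Its exact permutation p-values were 0.135 to 0.444 over the 3 comparisons. DMM wild-type replicate 3 had the lowest ratio, at 1.65. Without it every DMM wild-type ratio (2.51 to 3.34) lay above every sham ratio (1.86 to 2.36), and the log2 difference was 0.38 in place of 0.26. Tead1 over Tead3 was 1.41 ± 0.367 in DMM Pvalb cKO, 0.731 ± 0.494 in DMM wild-type and 1.05 ± 0.884 in sham wild-type libraries (SD, n = 5 each). For DMM Pvalb cKO against DMM wild-type the log2 ratio of FPKM + 1 for this pair differed by 0.41. Its exact permutation p was 0.0714, and 0.0238 without DMM wild-type replicate 4. Leaving out 1 library at a time gave differences of 0.30 to 0.50 for this pair. Both genes were under the filter and Tead1 was split within groups. Left-out p-values of the other ratios are not given.

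Across the 15 libraries the 6 tested genes varied together. All 15 pairs among them had a Benjamini-Hochberg adjusted permutation p under 0.05 for Pearson's r over 36 pairs tested, with r of 0.59 to 0.89 and a median of 0.78. The share of pairs of all tested genes that would pass was not computed, so this count is a description and not a trait of these genes. Spearman's rho was 0.54 to 0.90 and passed for 14 of the 15 pairs. Without the 2 libraries farthest from the median of the first gene of a pair r was 0.43 to 0.92, and after subtraction of group means it was 0.53 to 0.92. The closest pair was Wwtr1 and Amotl2 at r = 0.89. Yap1 and Ajuba reached r = 0.88 (rho 0.80), and Ccn1 and Ccn2 reached r = 0.78 (rho 0.72), each pair with an adjusted p under 0.05. Tead3 joined this set with r of 0.62 to 0.81. Ankrd1 did not, as 1 of its 8 pairs passed (with Yap1, r = 0.56, rho 0.46, adjusted permutation p = 0.0442 for r), and that r was 0.23 without the 2 farthest libraries. Tead1 fell into 2 separate sets of libraries, so no coefficient is given for it. The heat map of Pearson's r shows the 28 pairs without Tead1.

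**Figure D3:**
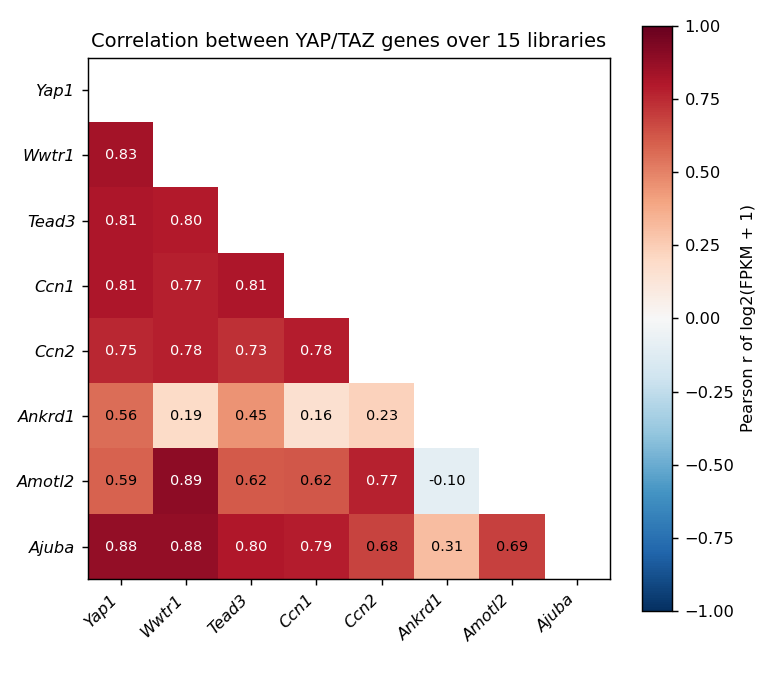
Pearson's r of log2(FPKM + 1) over 15 libraries for each pair of the 8 genes other than Tead1 (rows and columns are genes, the colour runs over -1 to 1). Yap1, Wwtr1, Tead3, Ccn1, Ccn2, Amotl2 and Ajuba share values of 0.59 to 0.89, and the Ankrd1 row is paler, at -0.10 to 0.56.

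The same genes tracked the connective tissue markers. Over 15 libraries, r with the fibroblast and synovium score (the mean log2 level of the 13 markers) was 0.88 for Ccn1 (rho 0.88), 0.86 for Yap1 (rho 0.85), 0.86 for Ajuba (rho 0.84), 0.85 for Wwtr1 (rho 0.80), 0.72 for Tead3 (rho 0.66), 0.69 for Ccn2 (rho 0.65) and 0.61 for Amotl2 (rho 0.52). For these 7 genes the adjusted permutation p of r over 18 relations was 0.000225 to 0.0375. It was 0.0854 for the rho of Amotl2. Without the 2 libraries farthest from the median score r was 0.80 for Ccn1, 0.75 for Yap1, 0.76 for Ajuba and 0.73 for Wwtr1. For Ccn2 and Amotl2 it was 0.39 each, whereas without DMM wild-type replicate 3 and DMM Pvalb cKO replicates 1 and 4 r was 0.84 for Ccn2 and 0.93 for Amotl2 (adjusted permutation p under 0.05 for both), so the strength of these relations depended on which libraries were left out. After subtraction of group means r was 0.65 to 0.86 over the 7 genes. Ankrd1 had r = 0.22 with this score (rho 0.24, adjusted permutation p = 0.489). Only this score and the fast muscle score were related to the genes, and the share of all tested genes that go with it was not computed. Sham replicate 4, lowest of the series for this score (3.84), was also lowest for the osteoblast (5.96), osteocyte (2.37) and chondrocyte (3.99) scores. A tie particular to connective tissue was thus not tested.

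Ankrd1 was related to the muscle markers instead. Its r with the fast muscle score was 0.63 (rho 0.61, adjusted permutation p = 0.0341 for r and 0.0442 for rho), and it was 0.78 in the 10 wild-type libraries. Without the 2 libraries farthest from the median score r was 0.45, so the relation rested in part on them. The 3 libraries with the highest Ankrd1, DMM wild-type replicate 3 and sham replicates 2 and 5, had fast muscle marker sums of 2755, 5041 and 4236 FPKM. Sham replicate 4, where Ankrd1 was listed at 0, had the lowest sum, at 131 FPKM. The Ankrd1 levels of 0.784 and 0.584 FPKM in DMM Pvalb cKO replicates 2 and 1 came with lower sums of 547 and 921 FPKM, so gene and markers did not match in every library. No other YAP or TAZ gene passed with the fast muscle score. Yap1 came closest at r = 0.56 (rho 0.57, adjusted permutation p = 0.0583 for r). After subtraction of group means r with this score was 0.84 for Yap1, 0.67 for Ccn1, 0.63 for Ankrd1 and 0.61 for Ccn2. It was 0.58 for Wwtr1, 0.57 for Ajuba, 0.56 for Tead3 and 0.41 for Amotl2. Within groups the relation to muscle markers was thus not particular to Ankrd1. The part of muscle or connective tissue RNA in the levels of these genes was not tested further. The scatter plots of gene level against score show both relations.

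**Figure D4:**
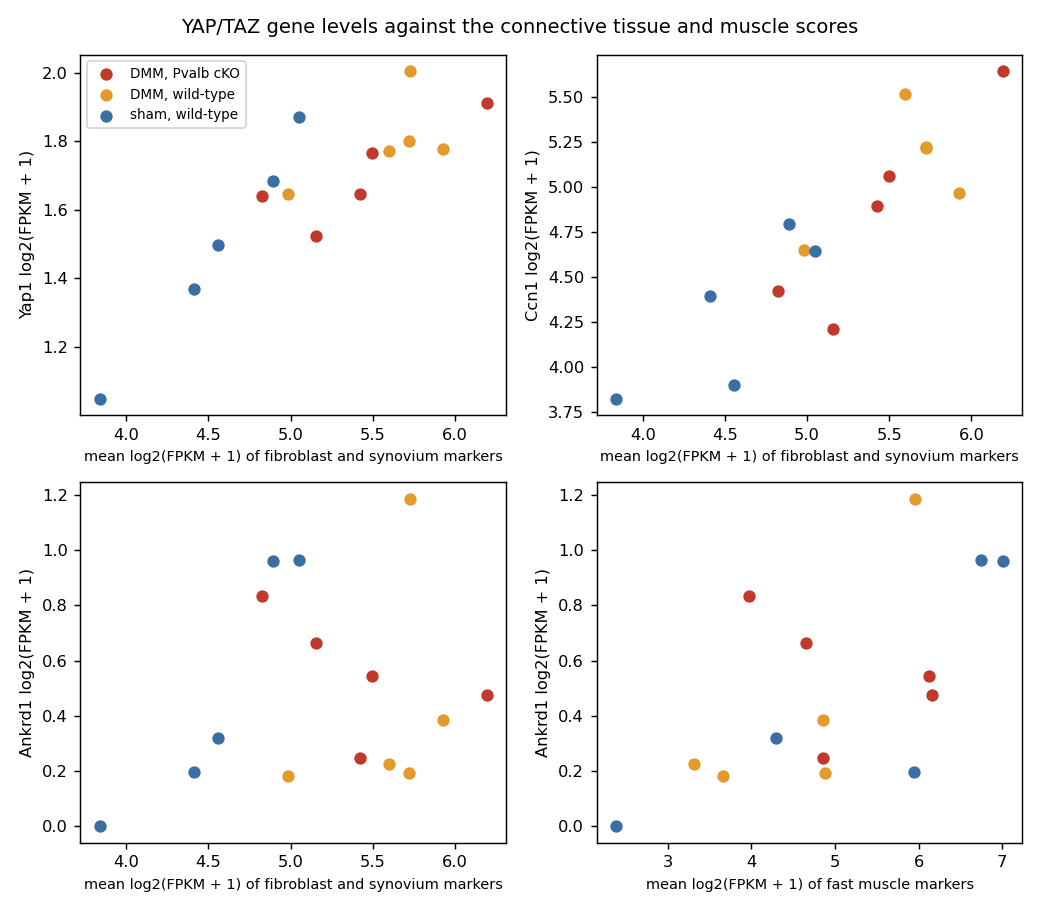
Log2(FPKM + 1) of Yap1, Ccn1 and Ankrd1 (vertical axes) against the mean log2(FPKM + 1) of fibroblast and synovium markers or of fast muscle markers (horizontal axes) in 15 libraries, coloured by group. Yap1 (r = 0.86) and Ccn1 (r = 0.88) are higher at higher connective tissue scores, where 4 of the 5 sham libraries lie left of every DMM wild-type library, and Ankrd1 shows r = 0.22 with that score and r = 0.63 with the muscle score.

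The tested genes with the pattern most like each of them over 15 libraries, by Pearson's r of log2(FPKM + 1), are given as a description. Unnamed loci were left out. For Yap1 they were Bhlhe41 (0.97) and P3h4 (0.96), and for Wwtr1 Lama4 (0.98), a laminin chain, and Bgn (0.97), the matrix proteoglycan biglycan. For Ccn1 they were Fibin (0.95) and Dbp (0.94), a clock-controlled transcription factor, and for Ccn2 Epdr1 (0.92) and Mapk8ip1 (0.92). Ajuba was closest to Slitrk6 (0.97) and Plod2 (0.96), a collagen-modifying enzyme, and Amotl2 to Dlc1 (0.95) and Lpin3 (0.94). For Tead3 they were Rarg (0.93) and Mab21l2 (0.90), and for Ankrd1 Praf2 (0.85) and Rbp7 (0.81). Of 13653 genes tested, an r above 0.8 was shared with 384 for Wwtr1, 316 for Amotl2, 310 for Yap1 and 260 for Ajuba. The count was 201 for Ccn1, 124 for Tead3, 91 for Ccn2 and 5 for Ankrd1. These counts include unnamed loci. The genes named here were thus the closest with a gene name in a longer list, which was shortest for Ankrd1.

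The rest of the pathway was described by 4 lists. In DMM wild-type against sham wild-type 0 genes of any list passed limma's adjusted p of 0.05. Of the Hippo kinases and scaffolds 17 of 18 were tested, 8 were higher and 9 lower, with a median log2 difference of -0.03. At an unadjusted limma p under 0.05, 2 were higher, beside 5.5% of all genes. These 2 were the scaffold Frmd6, at 6.59 ± 0.952 FPKM in DMM wild-type and 4.80 ± 0.794 FPKM in sham wild-type libraries (SD, n = 5 each, log2 difference 0.39, limma adjusted p = 0.378), and the adaptor Rassf1 (0.22). Among the other TEAD factors and YAP or TAZ binding proteins, 11 of 15 were tested and 10 were higher, with a median of 0.09. At an unadjusted limma p under 0.05, 3 of them were higher. Over all genes tested 50.4% were above 0 and 5.5% were higher at that p. Wtip, a LIM protein of the Ajuba family, was at 3.71 ± 0.551 FPKM in DMM wild-type and 2.602 ± 0.587 FPKM in sham wild-type libraries (SD, n = 5 each, log2 difference 0.40, limma adjusted p = 0.344).

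Of the further target genes 15 of 18 were tested, and 11 were higher in DMM wild-type than in sham wild-type libraries, beside 50.4% of all genes. At an unadjusted limma p under 0.05, 4 of them were higher, beside 5.5% of all genes. These 4 include Ptpn14, which is also counted among the binding proteins. The median was 0.16 beside 0.28 for the 6 genes above and 0.0019 for all genes. The largest difference was in the matrix gene Ccdc80, at 33.2 ± 6.75 FPKM in DMM wild-type and 17.6 ± 8.23 FPKM in sham wild-type libraries (SD, n = 5 each, log2 difference 0.96, limma adjusted p = 0.287). Nt5e, the ecto-nucleotidase CD73, had a log2 difference of 0.68 and F3, tissue factor, of 0.34. With the fibroblast score as a covariate the differences were 0.14 for Ccdc80, -0.13 for Nt5e, 0.09 for F3, 0.03 for Wtip and 0.03 for Frmd6. With the fast muscle score they were 1.13 for Ccdc80, 0.82 for Nt5e, 0.40 for F3, 0.49 for Wtip and 0.44 for Frmd6. Of these, Ccdc80, Nt5e and Wtip passed (limma adjusted p = 0.0240, 0.0343 and 0.00754), and this fit was not repeated for them with libraries left out. Genes of the serum response factor and MRTF branch, the other transcription route that follows the actin cytoskeleton, had 6 of 14 tested genes higher and a median of -0.01. Zyx, the focal adhesion protein zyxin, was lower at 54.4 ± 9.27 FPKM in DMM wild-type against 71.4 ± 6.45 FPKM in sham wild-type libraries (SD, n = 5 each, log2 difference -0.40, limma adjusted p = 0.470).

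In DMM Pvalb cKO against DMM wild-type most tested genes of the YAP and TAZ lists had lower means. Of the further targets 1 of 15 was higher (median -0.17), and of the TEAD and binding proteins 1 of 11 (median -0.16). Of the Hippo kinases 3 of 17 were higher (median -0.09), and of the serum response factor genes 9 of 14 (median 0.07). Ptpn14 is counted both as a further target and as a binding protein. Of all genes tested 54.9% were below 0 (median -0.017), but with median-of-ratios scaling 8031 of 13653 were above 0. No gene of these lists passed, each with a limma adjusted p of 0.935 or more. Both comparisons use the same DMM wild-type libraries, so they are not independent. The kinase Map4k4 was at 10.0 ± 2.88 FPKM in DMM Pvalb cKO and 12.6 ± 0.870 FPKM in DMM wild-type libraries (SD, n = 5 each, log2 difference -0.34). Ptpn14, a phosphatase that binds YAP, was at 1.36 ± 0.331 FPKM in DMM Pvalb cKO and 1.82 ± 0.275 FPKM in DMM wild-type libraries (SD, n = 5 each, log2 difference -0.26). Zyx was at 67.8 ± 13.1 FPKM in DMM Pvalb cKO and 54.4 ± 9.27 FPKM in DMM wild-type libraries (SD, n = 5 each, log2 difference 0.31).

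**Figure D5:**
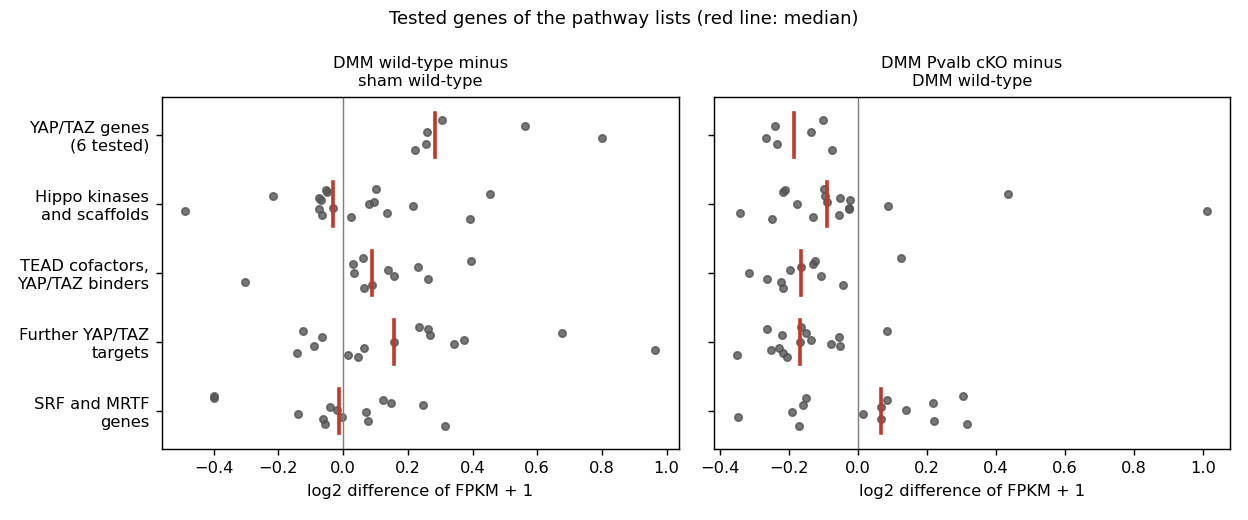
Log2 difference of FPKM + 1 (horizontal axis) for each tested gene (grey point) of the 6 YAP and TAZ genes and of 4 pathway lists, with the median in red, for DMM wild-type minus sham wild-type (left) and DMM Pvalb cKO minus DMM wild-type (right). Medians of the 6 genes lie at 0.28 and -0.18, those of the Hippo kinases at -0.03 and -0.09.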

How the data were processed

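Tibial subchondral bone of 15 mice, 1 library each, was sequenced after poly(A) selection and dUTP library construction, from RNA with an integrity number of at least 8, per the labels' protocols. Per the submitters' processing notes, the tools included the aligner STAR 2.7.10a, the counter featureCounts 2.0.3, the trimmer Trimmomatic 0.39 and FastQC 0.11.9, with the build GRCm39. The authors deposited 1 table with FPKM of every library. Neither the tool behind the FPKM nor the strand setting of the counting is given in the sources used here. FPKM are not counts, and only 31.1% of values under 20 fragments came within 0.05 of a whole number, so no count test was used and the depth, taken from the step between low values and GENCODE M21 exon lengths, is an estimate. Columns were matched to samples by name, 0 were left unmatched, and 0 of 105 library pairs were identical. Per the labels, replicates are biological. Of 55335 IDs, 55154 were given a symbol.

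Tests used log2(FPKM + 1), a scale on which low genes change less than their ratio. One limma 3.58.1 fit (R 4.3.3) with 1 mean per group and an intensity trend covered 13653 genes (1 FPKM or more in 5 or more of 15 libraries), adjusted by Benjamini-Hochberg. Values for genes under that filter come from a fit without it. Correlations used 100000 permutations. The limma script was tested on simulated data. Named pathway genes were up to 4 per list with the smallest p in each of the first 2 comparisons. The genes and lists were chosen with earlier results of these data known. Alternatives covered pseudocount, filter, scaling, library weights, marker covariates, replicate block and left-out libraries.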

Additional observations from a re-analysis of the deposited data

Results flagged for a closer look

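Ankrd1 stood at 1.28 FPKM in DMM wild-type replicate 3, far above the other 4 libraries of its group (0.135 to 0.306 FPKM). On the log2(FPKM + 1) scale the gap was 0.799 of the group's range, over the critical value of 0.71 for 5 samples. Over the 36 groups of values examined this was 1, and chance alone gives about 1 in 20. The same library had the highest fast muscle marker sum of its group, at 2755 FPKM, and was 1 of the 3 farthest out on the first principal component. The part of muscle RNA in this value was not tested.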

How the results depend on the processing

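Among the 6 tested genes 0 passed in any comparison under every alternative run except the fast muscle covariate in DMM wild-type against sham. There 2 passed (0 to 2 when each library was also left out, an alternative chosen after seeing the data). With that covariate 3 pathway list genes passed as well (Ccdc80, Nt5e and Wtip). The DMM wild-type minus sham differences kept their direction except with the fibroblast covariate, which itself went largely with these groups. It gave -0.10 for Yap1, -0.10 for Wwtr1, -0.045 for Ccn1, -0.93 for Ccn2 and -0.16 for Amotl2. That covariate also turned DMM Pvalb cKO minus sham to -0.14 for Yap1, -0.24 for Wwtr1, -0.17 for Ccn1, -0.87 for Ccn2 and -0.32 for Amotl2, and DMM Pvalb cKO minus DMM wild-type to 0.060 for Ccn2. Without the 3 outlying libraries of the first principal component DMM Pvalb cKO minus DMM wild-type was 0.024 for Yap1, 0.22 for Ccn2 and 0.011 for Ajuba. The cause was not tested. Leaving out 1 library at a time gave -0.40 to 0.10 for Ccn2 in DMM Pvalb cKO minus DMM wild-type, and in DMM Pvalb cKO minus sham -0.14 to 0.36 for Ccn2 and -0.087 to 0.12 for Amotl2. It gave 0.17 to 0.38 for the log2 Wwtr1 over Yap1 ratio in DMM wild-type minus sham, 0.30 to 0.50 for Tead1 over Tead3 in DMM Pvalb cKO minus DMM wild-type, and -0.52 to -0.29 for Ccn2 over Ccn1 in DMM Pvalb cKO minus sham. The number of the 9 genes with an exact permutation p under 0.05 was 2 to 5 for DMM wild-type against sham (3 with all libraries), 0 to 2 for DMM Pvalb cKO against DMM wild-type and 0 to 1 for DMM Pvalb cKO against sham. All genes called ranged over 0 to 2, 1 to 2 and 2 to 8 in these 3 comparisons. In DMM wild-type against sham all genes called were 2 with no filter, 271 with the fast muscle covariate and 15 with array weights. For DMM Pvalb cKO against DMM wild-type (1 called) they were 2 with no filter and 4 with array weights. For DMM Pvalb cKO against sham (4 called) they were 7 with no filter, 7 with median-of-ratios scaling, 9 with the fast muscle covariate, 7 without the 3 libraries and 22 with array weights. The replicate block gave 0, 1 and 1 genes in the 3 comparisons, and same-numbered libraries did not deviate together throughout. In DMM wild-type against sham their r was -0.237 to 0.4, and 4 of 5 numbers correlated best with their own number, a hint from the data and not from the design. With a pseudocount of 0.1 Tead1 moved to 0.81 in DMM Pvalb cKO minus DMM wild-type and 1.01 in DMM Pvalb cKO minus sham, and Tead3 to 0.43 in DMM wild-type minus sham. The depth limits Ankrd1, Tead1 and Tead3 most, at medians of 22.9, 212 and 119 estimated fragments per library.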

Other observations

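Tead1 took 2 separate levels among the 15 libraries. It was at 0.0590 to 0.205 FPKM in 4 libraries (DMM wild-type replicates 1 and 2 and sham replicates 1 and 5) and at 0.509 to 1.44 FPKM in the other 11, which included all 5 DMM Pvalb cKO libraries. With unnamed loci left out, the tested genes with the pattern most like Tead1 were Ptp4a2, a phosphatase, at 53.1 to 61.6 FPKM, and Tlr4, the endotoxin receptor. Tlr4 was at 1.12 FPKM in DMM wild-type replicate 2, at 0.762 FPKM in sham replicate 1 and at 0.366 FPKM in sham replicate 5, against 2.51 to 4.53 FPKM in the other 12 libraries, which included DMM wild-type replicate 1. The Hippo-activating kinase gene Taok1 was split as well, at 2.06 to 2.69 FPKM in 6 libraries (DMM wild-type replicates 4 and 5 and sham replicates 1, 2, 4 and 5) and at 5.50 to 7.70 FPKM in 9, again with all 5 DMM Pvalb cKO libraries in the upper set. The low sets of Tead1 and Taok1 shared sham replicates 1 and 5. These splits were seen after the values were known, the limits between sets were set by eye, and no test was made of them.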
